A study of Mus musculus with 4 samples.

Results

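The hypoxia-inducible factor (HIF) target genes described here are 10 genes that HIF is known to induce when oxygen is low: Pdk1, Bnip3, Car9, Vegfa, Adm, Egln1, Ddit4, Higd1a, Kdm3a and P4ha1. They are 10 of the 18193 genes read by probe sets that name 1 gene, on arrays of mouse intestinal organoids (epithelium cultured in Matrigel). All 4 groups carried floxed Apc alleles (Apc fl/fl), and the Apc protein helps to have beta-catenin degraded, which restrains Wnt signalling. The groups were untreated organoids at day 4, organoids given 4-hydroxytamoxifen (4OHT) for 24 h to recombine Apc and collected at day 4, untreated organoids at day 6, and 4OHT-treated organoids at day 6. The labels call the 4OHT groups Apc-deficient. Each group was 1 expression array, so no difference has a replicate check. The sources used here give neither the recombinase and its driver nor whether the cultures were separate. No array held 4OHT-treated organoids with intact Apc alleles, so effects of 4OHT itself and of recombination cannot be told apart.

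HIF is a pair of a labile alpha subunit and a stable beta subunit. In oxygen, prolyl hydroxylases such as the product of Egln1 mark the alpha subunit, and the von Hippel-Lindau protein then leads it to degradation; without oxygen it accumulates and binds a short core sequence near its target genes. In the intestine the epithelium lies next to a lumen with little oxygen, and HIF targets there serve barrier function, glycolysis and iron uptake. The 10 genes have several roles: pyruvate use (Pdk1), mitochondria (Bnip3, Higd1a), acid-base balance (Car9), secreted signals (Vegfa, Adm), growth control (Ddit4), and oxygen-dependent dioxygenases (Egln1, Kdm3a, P4ha1).

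The genes were selected on their known role and on 4OHT and day differences already seen on these same arrays, in particular that the probe sets of Vegfa and of Pdk1 disagreed. Their differences are therefore given as a description, with no test. The 10 genes were read by 19 probe sets: 4 genes by 1, 4 genes by 2, Higd1a by 3 and Pdk1 by 4. Of these, 16 probe sets, covering all 10 genes, reached the level filter, an intensity of 20.9 on at least 1 array, which is the median of all values. The dimmest of them reached 27.0, and the brightest of the 3 left out reached 20.8. Differences are on the log2(intensity + 16) scale, where 2-fold is 1 and where the change of dim probe sets is understated, and linear intensities are given beside them. An intensity is not comparable between probe sets, so levels are compared only across arrays.

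The promoters of the 5 genes with the largest mean 4OHT differences on their brightest probe sets are shown because they carry the HIF core, with each complete match to ACGTG or GCGTG, on either strand, in capitals. Each run is the 130 bases before an annotated start of transcription, read 5′ to 3′ on the gene's own strand, from RefSeq on GRCm38.p6. Where a gene had several starts, the one whose wider window, described below, held the most matches was taken. Of the 5 genes this concerned Pdk1, whose other start had 0 matches in that window. They lie at chr7:138909507-138909636 on the minus strand (Bnip3), chr2:71873094-71873223 on the plus strand (Pdk1), chr4:43506896-43507025 on the plus strand (Car9), chr8:124949255-124949384 on the minus strand (Egln1) and chr9:121857797-121857926 on the minus strand (Higd1a).
Bnip3: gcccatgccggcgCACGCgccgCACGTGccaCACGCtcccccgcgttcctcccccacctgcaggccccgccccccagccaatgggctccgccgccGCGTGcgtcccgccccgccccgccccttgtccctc
Pdk1: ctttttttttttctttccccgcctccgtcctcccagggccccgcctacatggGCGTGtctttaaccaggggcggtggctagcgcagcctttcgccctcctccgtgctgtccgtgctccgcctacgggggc
Car9: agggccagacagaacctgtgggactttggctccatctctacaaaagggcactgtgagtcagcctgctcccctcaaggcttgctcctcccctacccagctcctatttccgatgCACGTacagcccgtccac
Egln1: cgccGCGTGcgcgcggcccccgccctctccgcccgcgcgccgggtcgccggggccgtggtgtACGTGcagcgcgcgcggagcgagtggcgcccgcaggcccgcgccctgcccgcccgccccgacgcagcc
Higd1a: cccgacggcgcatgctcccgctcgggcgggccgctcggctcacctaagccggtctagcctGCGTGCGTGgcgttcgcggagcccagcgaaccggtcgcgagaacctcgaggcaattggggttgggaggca

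Bnip3 held 5 matches in these bases, of which those starting at -108 and -107 overlap as a palindrome, and the others start at -117, -99 and -35. Pdk1 held 1 whole match at -78, Car9 1 on the reverse strand at -18, Egln1 2 at -126 and -68, and Higd1a 2 that share a base, at -70 and -66. In windows from 250 bases before to 50 after a start, all 10 genes had at least 1 window with a match, and 8 genes had one with 2 or more, overlapping matches counted apart. Over 27025 genes with windows, 46.7% had a match and 22.9% had 2 or more. Vegfa had windows at 2 starts, of which the upstream one on its strand held no match and the other held 2. Pdk1 and Kdm3a also had windows without a match. Counted by window, 10 of the 14 windows of these genes held a match, against 43.8% of all 32851 windows. A match is a description of the letters and does not show that HIF binds there.

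With 4OHT, the HIF targets were mostly lower on both days. Of the 16 probe sets past the level filter, 11 were lower with 4OHT on both days and 1 was higher on both, against 27.1% and 29.5% of the 23044 probe sets past the filter. Among the 11, Adm 1416077_at and P4ha1 1452094_at passed the filter of 20.9 only through untreated arrays. They read at most 16.5 and 18.9 with 4OHT, so their direction partly follows from the filter. The median difference of the 16 was -0.41 at day 4 (0.05 over all 23044) and -0.71 at day 6 (-0.02 over all). At day 4, 3 were at least 2-fold lower, where 0.907% of all were, and at day 6 also 3, where 2.5% of all were. Only Bnip3 was 2-fold lower on both days, as 0.551% of all were. None of the 16 was 2-fold higher on either day (0.903% and 0.668% of all). Nothing is read from these counts, since the genes were picked with these contrasts known.

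**Figure D1:**
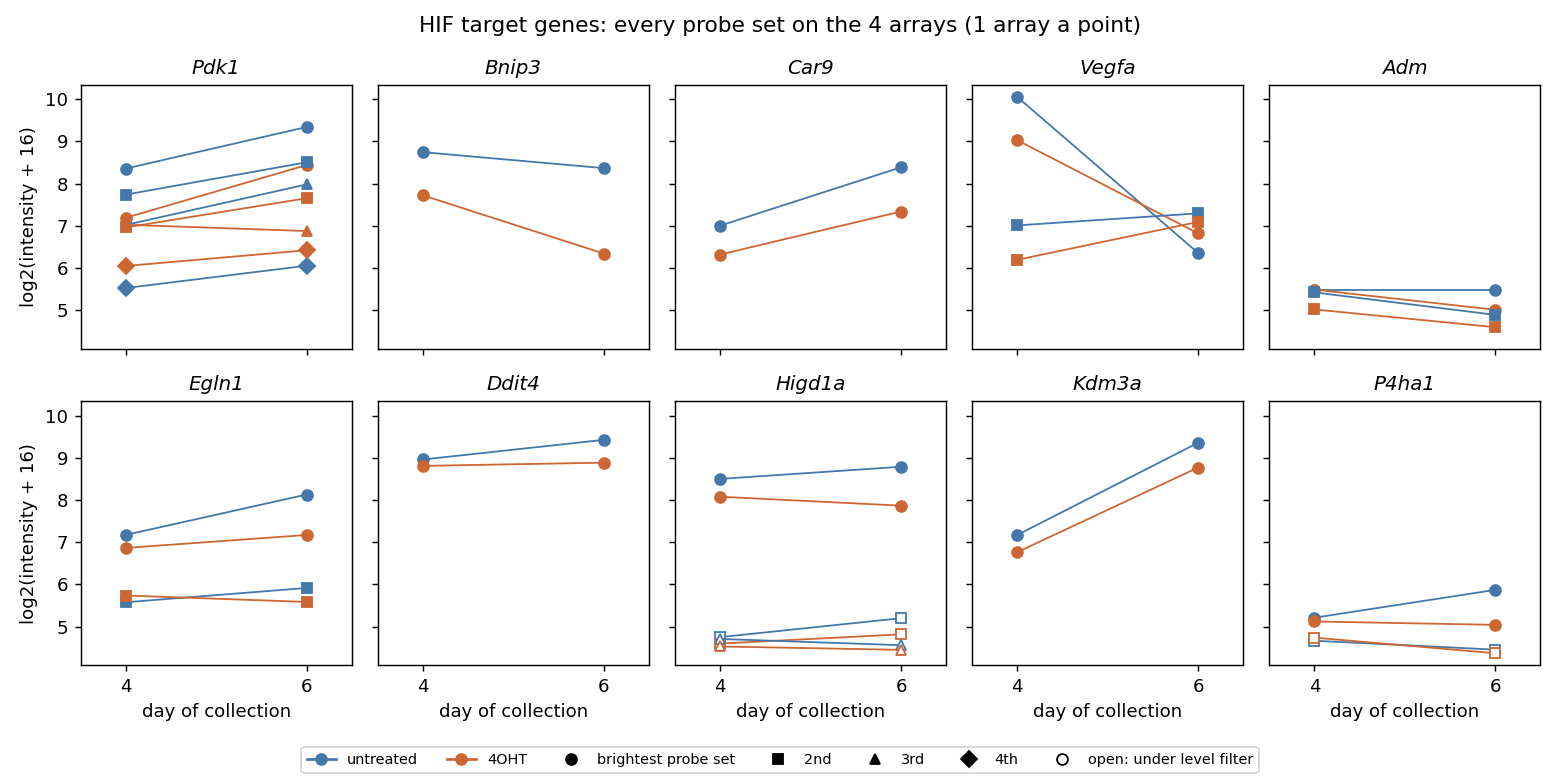
Level of each HIF target gene, as log2(intensity + 16), by day of collection; each point is 1 array, each line joins the 2 days of 1 probe set in 1 arm, and open points are probe sets under the level filter. The untreated line lies above the 4OHT line on both days for Bnip3, Car9, Ddit4 and Kdm3a, while the lines of the brightest Vegfa probe set cross.

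Bnip3, a mitochondrial receptor that recruits the autophagy machinery, had the largest difference. Its 1 probe set read 414 in untreated and 196 in 4OHT-treated organoids at day 4, and 315 and 65.3 at day 6. The 4OHT array was the lower one of each day, and the 4OHT array of day 6 was the lowest of all. The ratio of untreated to 4OHT was 2.11 at day 4 and 4.82 at day 6, or log2 differences of -1.02 and -2.02, and their mean was -1.52 ± 0.25. That standard error (SE), like those below, is from a limma fit of 4OHT and day over the 4 arrays. For the HIF target genes described here the fit ran over all probe sets past the level filter. For the other genes below it ran over 1 probe set per gene. Each SE rests on the difference between the days, mostly as pooled over all probe sets or genes of its fit. It does not measure the spread between cultures.

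Higd1a encodes a small protein of the inner mitochondrial membrane. Its brightest probe set read 346 and 254 at day 4 and 426 and 217 at day 6, untreated first. The 4OHT arrays were lower by 0.42 and 0.92 on the log2 scale. Its other 2 probe sets stayed under the level filter, at 20.8 or less on every array, and were also lower with 4OHT on both days.

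Pdk1, whose product phosphorylates pyruvate dehydrogenase and so keeps pyruvate out of the citric acid cycle, was read by 4 probe sets that did not move together. The brightest, 1423747_a_at, read 312 and 130 at day 4 and 634 and 332 at day 6, untreated first, differences of -1.16 and -0.90 with a mean of -1.03 ± 0.20 (SE). The second, 1423748_at, which the annotation ties to the same cDNA record, read 198 and 109 and then 348 and 186, differences of -0.78 and -0.85. On these 2 probe sets the 4OHT array was the lower one of each day.

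The third Pdk1 probe set, 1435836_at, read 114 and 115 at day 4 and 237 and 102 at day 6. It was level at day 4 (0.0039) and lower at day 6 (-1.10). The fourth and dimmest, 1434974_at, went the other way on both days, reading 30.2 and 50.4 and then 50.7 and 69.9, differences of 0.52 and 0.37. The annotation ties the latter 2 to other cDNA records. It does not say where each of the 4 lies along the gene, so whether they read different transcript ends was not tested.

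Car9, a carbonic anhydrase of the cell surface that is widely used as a marker of HIF activity, read 113 in untreated and 64.1 in 4OHT-treated organoids at day 4, and 319 and 146 at day 6. Its 1 probe set was lower with 4OHT by 0.68 and by 1.05 on the log2 scale, with a mean of -0.87 ± 0.21 (SE). Both days gave the same order of the arms.

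The secreted signals were less even. Vegfa encodes vascular endothelial growth factor A, which drives vessel growth. Its brighter probe set, 1451959_a_at, read 1047 in untreated and 507 in 4OHT-treated organoids at day 4, but 66.1 and 97.3 at day 6. It was thus lower with 4OHT at day 4 (-1.02) and higher at day 6 (0.46). The other, 1420909_at, read 113 and 57.5 at day 4 and 141 and 121 at day 6, lower on both days by 0.81 and by 0.20. The probe sets gave the same direction at day 4 and opposite directions at day 6.

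Adm encodes adrenomedullin, a vasodilator peptide, and both of its probe sets were dim. On 1416077_at it read 27.0 and 16.5 at day 4 and 13.8 and 8.30 at day 6, lower with 4OHT by 0.40 and 0.29. On 1447839_x_at it read 29.0 on 3 arrays and 16.4 on the 4OHT array of day 6. Its values in the untreated arrays of the 2 days were identical to the last digit deposited, as were those of 114 of all 45101 probe sets, so that value carries no measured day difference. A probe set of the _x_at kind can bind more than 1 transcript.

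Among the dioxygenases, Egln1, the main oxygen sensor that marks HIF alpha subunits, read 128 and 101 at day 4 and 264 and 128 at day 6 on its brighter probe set, untreated first. The differences were -0.31 and -0.96. Its dimmer probe set, 1451110_at, read 31.8 and 37.4 and then 44.4 and 32.1, higher at day 4 (0.16) and lower at day 6 (-0.33). Only the day 6 direction was shared by both.

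Kdm3a, a histone demethylase that removes methyl groups from lysine 9 of histone H3, read 128 and 92.8 at day 4 and 639 and 420 at day 6, lower with 4OHT by 0.41 and 0.59. P4ha1, a catalytic subunit of collagen prolyl hydroxylase, read 21.1 and 18.9 at day 4 and 42.6 and 17.0 at day 6 on its brighter probe set, lower by 0.09 and 0.83. On 3 of the 4 arrays it lay between 17.0 and 21.1, near the level filter. The dimmer P4ha1 probe set did not reach the filter and differed by 0.07 and -0.09.

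Ddit4, an inhibitor of the growth kinase mTORC1 that also answers to other stresses, was read by 1 probe set. It gave 482 and 432 at day 4 and 671 and 456 at day 6, lower with 4OHT by 0.15 and 0.54.

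**Figure D2:**
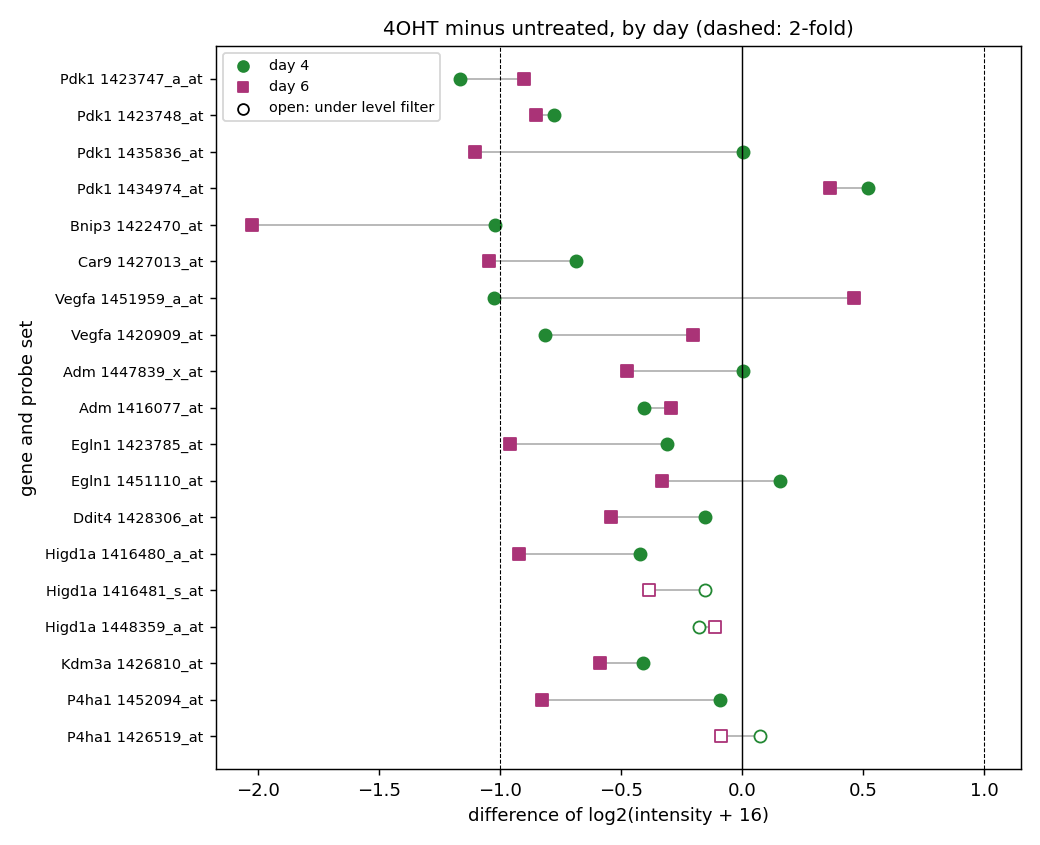
Difference of log2(intensity + 16) between 4OHT-treated and untreated organoids for each of the 19 probe sets, at day 4 (circles) and day 6 (squares), 1 array against 1; dashed lines mark 2-fold. Bnip3 is past the lower line on both days, and the 4 Pdk1 probe sets lie on both sides of 0.

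The 4OHT differences changed between the days by -1.11 to 1.49 on the log2 scale over the 16 probe sets, with no test, since 1 array a group leaves no error for it. They were lower at day 6 than at day 4 for 12 of the 16, and for 58.6% of all probe sets. The difference at day 6 was lower by 1.001 for Bnip3, lower by 1.11 for the third Pdk1 probe set and higher by 1.49 for the brighter Vegfa probe set. The median over the 16 was -0.38, and over all 23044 probe sets -0.09.

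Other values moved with 4OHT on the same arrays. The 3' probe set of the Actb control exceeded its 5' probe set by 2.96 (untreated) and 3.90 (4OHT) log2 units at day 4, and by 1.72 and 2.34 at day 6, so the signal toward the 5' end dropped more on the 4OHT array of each day. Of 6 measured enterocyte markers, all were tested and 5 fell (Apoa4, Fabp1, Alpi, Fabp2 and Apoa1); the summed intensity of the 6 was 3170 and 1171 at day 4 and 9480 and 4870 at day 6, untreated first. In bulk RNA, fewer cells of a type and less RNA per cell cannot be told apart. The part of either in the differences of the HIF targets was not tested.

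The cultures carried the signal of epithelium. Epcam read 891 to 5080 and Cdh1 480 to 2392 over the 4 arrays. Of 9 epithelial markers only Krt20, a keratin of differentiated cells, passed the test below, and it fell. Of the markers of other cells, 11 were tested and none passed. Summed over each list, 9 fibroblast and muscle markers read 229 to 230 at day 4 and 131 to 136 at day 6, 6 endothelial markers 97.6 to 109 and 56.1 to 60.3, 5 immune markers 104 to 106 and 58.3 to 64.1, and 2 red cell markers 34.1 to 34.3 and 15.4 to 17.0. These ranges span both arms of a day, and all 4 sums were lower at day 6 than at day 4.

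Of the 16 probe sets past the filter, 12 were higher and 3 lower at day 6 in untreated organoids, with 1 at the identical value, and the median was 0.50. In the 4OHT arm 8 were higher and 8 lower, with a median of -0.0017. Of all 23044 probe sets past the filter, 42.2% were lower at day 6 in untreated organoids and 46.5% in the 4OHT arm. Their medians were 0.21 and 0.07, so that most probe sets past the filter were also higher at day 6. Without the level filter, the medians over 34945 probe sets were -0.07 and -0.08. Quantile normalization turned the medians over the 23044 to -0.03 and -0.08. After it 9 of the 16 were higher and 7 lower in untreated organoids, and 7 higher and 9 lower in the 4OHT arm. The scaling of the day 4 arrays to those of day 6 is unknown, and the range from the 5th to the 95th percentile was 5.77 and 5.90 log2 units at day 4 and 6.89 and 6.73 at day 6.

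In untreated organoids 2 probe sets, those of Kdm3a and Car9, were at least 2-fold higher at day 6, where 23.7% of all were, and 1, of Vegfa, was 2-fold lower, where 4.43% of all were. In the 4OHT arm 3 were 2-fold higher (Kdm3a, Car9 and the brightest of Pdk1; 16.2% of all) and 2 were 2-fold lower (Vegfa and Bnip3; 2.47% of all). Higher calls made up 84.3% of all 2-fold calls in the untreated and 86.8% in the 4OHT arm, and 56.4% and 60.1% after quantile normalization.

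Kdm3a had the largest difference upward, 2.18 in untreated organoids, from 128 to 639, and 2.004 in the 4OHT arm. Car9 was higher by 1.38 and 1.02. The brightest Pdk1 probe set was higher by 0.98 and 1.25. Bnip3 was lower at day 6, by 0.38 in untreated organoids and by 1.38 in the 4OHT arm, so that its arms drew apart.

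The 2 probe sets of Vegfa gave opposite directions between the days. On 1451959_a_at the untreated array read 15.8-fold less at day 6 than at day 4 (-3.69), and the 4OHT array 5.21-fold less (-2.21). On 1420909_at both arms were higher at day 6, by 0.28 and by 0.90. After quantile normalization the former of these turned to -0.35 and the latter kept its sign. The Vegfa transcript is known to be spliced into several forms, and probe sets of the _a_at kind read more than 1 transcript of a gene; the annotation does not say which forms these 2 read.

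**Figure D3:**
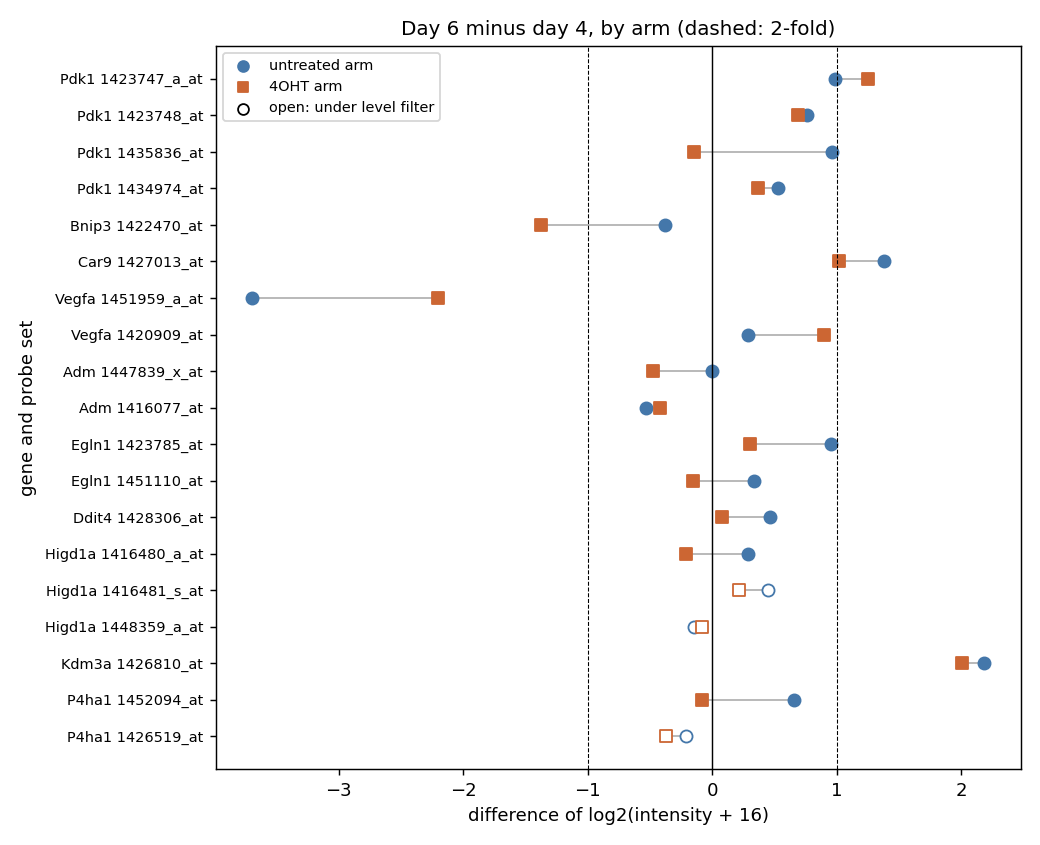
Difference of log2(intensity + 16) between day 6 and day 4 for each of the 19 probe sets, in untreated (circles) and 4OHT-treated organoids (squares), 1 array against 1; dashed lines mark 2-fold. The brighter Vegfa probe set lies at -3.69 and -2.21 and Kdm3a at 2.18 and 2.004, with the other probe sets between them.

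Other genes of the pathway, 95 in 4 lists and none of them among the 10, were tested for a 4OHT effect over both days with limma on the brightest probe set of each gene. Of 79 past the level filter, 8 fell and 3 rose at an adjusted p under 0.05, and 68 did not pass; over all 13198 genes tested, 2.41% fell and 1.06% rose, and 1864 had an unadjusted p under 0.05. The median effect was -0.12 over the 79 and 0.02 over all genes. These calls hang on the fit: no pathway gene passed without the level filter, without the day term or at a pseudocount of 64. None passed with any 1 of the 4 arrays left out either, but those fits also had to drop the day term, which on all 4 arrays already left none.

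Among 19 genes of oxygen sensing and the HIF subunits, 18 were tested, 2 fell, none rose and 16 did not pass, and the median differences were -0.07 (day 4) and -0.15 (day 6). Egln3, a prolyl hydroxylase that is itself a HIF target, read 659 and 270 at day 4 and 366 and 82.1 at day 6, untreated first, and fell by 1.60 ± 0.23 (SE; limma, adjusted p = 0.00025). Its other probe set past the filter was lower by 1.15 and 0.72. Cited2, which HIF induces and which competes with HIF for its coactivators, read 79.9 and 25.8 and then 313 and 99.5, and fell by 1.35 ± 0.21 (limma, adjusted p = 0.00066). Its other probe set past the filter differed less, by -0.46 and -0.17.

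The subunits themselves did not pass. Hif1a, the ubiquitous alpha subunit, read 62.5 and 70.5 at day 4 and 347 and 284 at day 6, an effect of -0.07 ± 0.22. Epas1, which encodes the alpha subunit of HIF-2, read 50.9 and 42.6 at day 4 and 227 and 84.4 at day 6, lower by 0.19 and 1.28 (adjusted p = 0.12). The beta subunit gene Arnt had an effect of 0.0023 ± 0.22 and Vhl of -0.15 ± 0.21; these 4 were named after their values were seen. Crebbp, a coactivator of HIF, differed by -0.48 ± 0.21, Egln2, the third prolyl hydroxylase, by 0.44 ± 0.21, and Elob, a partner of Vhl, by 0.26 ± 0.21, none past the test, and P4htm lay under the level filter. On their brightest probe sets, the mean 4OHT differences of the 3 hydroxylase genes were negative for Egln3 and Egln1 and positive for Egln2.

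Of 32 further HIF targets measured, 23 were tested, 5 fell, 1 rose and 17 did not pass, with medians of -0.12 and -0.18. Ankrd37, an ankyrin repeat protein gene, read 197 and 57.6 at day 4 and 130 and 25.6 at day 6 and fell by 1.67 ± 0.21 (limma, adjusted p = 0.000105). Ndrg1, a stress-responsive gene often used to report hypoxia, fell by 1.54 ± 0.23, and its 4 other probe sets past the filter were lower by 0.51 to 1.58 at day 4 and by 1.13 to 2.10 at day 6. Ero1a, an oxidase that forms disulfide bonds in the endoplasmic reticulum, fell by 1.22 ± 0.21, and its 2 other probe sets past the filter were also lower with 4OHT, by 0.59 and 1.33 at day 4 and by 1.04 and 0.94 at day 6.

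Pfkfb4, which controls the flux of glycolysis, fell by 1.09 ± 0.21, and the transcription repressor gene Bhlhe40 by 1.05 ± 0.21. The endothelin gene Edn1 went the other way. It read 270 and 708 at day 4 and 150 and 354 at day 6 and rose by 1.25 ± 0.21 (adjusted p = 0.0014). Fam162a (-0.70 ± 0.21, adjusted p = 0.080), Mxi1 (-0.59 ± 0.21) and Stc2, a secreted stanniocalcin (-0.41 ± 0.21), did not pass. In this list 9 genes, among them the hydroxylase gene P4ha2, lay under the level filter and 3 are not analysed here.

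A list of 9 intestinal HIF targets was labelled HIF-2, though which alpha subunit serves each gene was not tested. Of these 9 genes, 8 were tested, of which 2 fell, 1 rose and 5 did not pass. Slc40a1, the iron exporter ferroportin, read 202 and 75.5 at day 4 and 332 and 106 at day 6 and fell by 1.38 ± 0.21. Its other probe set past the filter differed by -0.03 and -1.20. Ankrd37, in both lists, was the other gene that fell, and Tff3, a goblet cell peptide, rose by 0.79 ± 0.21 (limma, adjusted p = 0.043). The iron importer gene Slc11a2 (-0.36 ± 0.21), Tfrc (-0.12 ± 0.21), Nt5e (0.19 ± 0.21) and Cybrd1 (0.12 ± 0.21) did not pass.

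Paralogs and partners of the 10 genes gave 1 that fell, 1 that rose and 33 that did not pass among 35 tested of 41 measured, and the median differences were -0.10 (day 4) and 0.0074 (day 6). The gene that fell was Egln3, also in the first list. Ramp1, which encodes a protein that pairs with peptide receptors, read 54.7 and 120 at day 4 and 25.2 and 70.8 at day 6. It rose by 1.01 ± 0.21 (limma, adjusted p = 0.0079). Vegfb, a relative of Vegfa, differed by 0.53 ± 0.21, Sesn3, another brake on mTORC1, by 0.75 ± 0.21, Ddit4l, the paralog of Ddit4, by 0.76 ± 0.22, and Higd2a by -0.58 ± 0.21, none past the test. Pdk2 (-0.13 ± 0.22) and Pdk3 (-0.36 ± 0.22), paralogs of Pdk1 named after their values were seen, did not pass either, and Pdk4 lay under the filter.

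**Figure D4:**
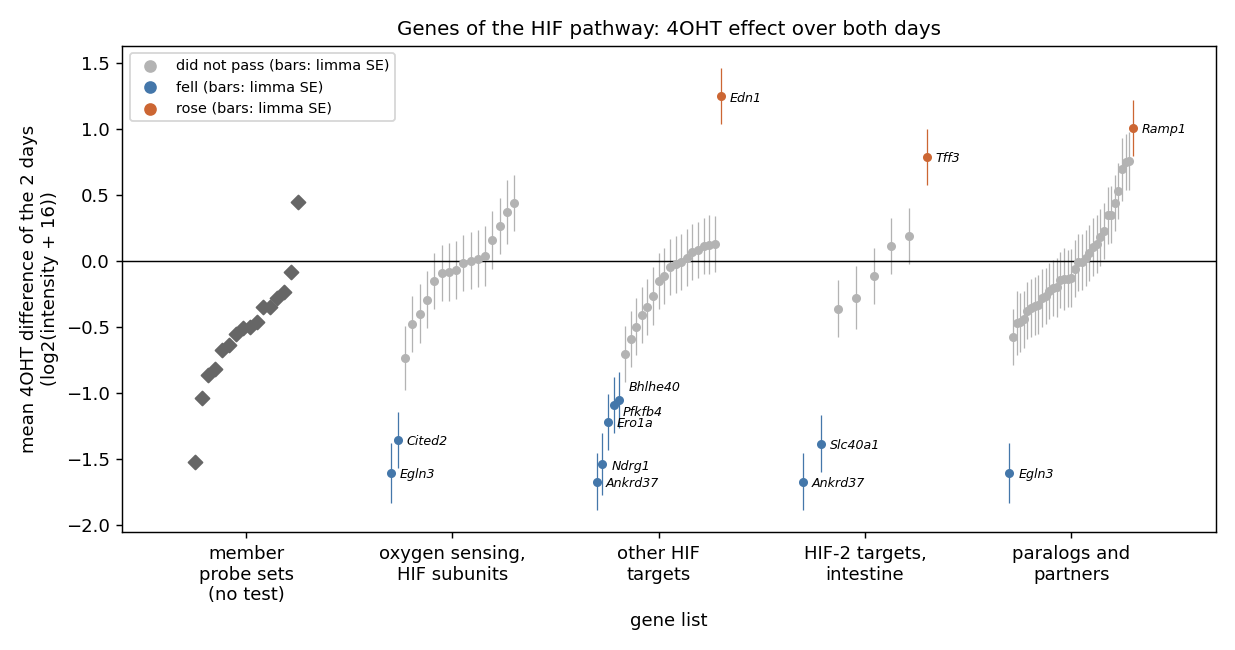
Mean of the 4OHT differences of the 2 days, on the log2(intensity + 16) scale, for the 16 probe sets of the 10 HIF targets past the level filter (diamonds, no test) and for the tested genes of 4 pathway lists (circles, with the SE of limma as bars). The 8 genes that fell lie between -1.67 and -1.05, the 3 that rose between 0.79 and 1.25, and Egln3 and Ankrd37 appear in 2 lists each.

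Bnip3 had the largest mean 4OHT difference of the 10, and the genes whose profile over the 4 arrays lay nearest to its own were listed out of 13197 others. Nearness was the summed absolute distance after each gene was centred on its own mean, which 4 arrays determine only loosely. Predicted and clone-named genes were left out of the list but count in the ranks below. The 8 nearest of the rest were Egln3 (0.60), Ankrd37 (0.72), Selenbp1 (0.81), Prelid2 (0.96), Aldoc (1.26), Ero1a (1.48), Lgals3 (1.51) and Mvd (1.53). Of these, 3 genes, Egln3, Ankrd37 and Ero1a, stand in the pathway lists, which held 79 of the 13198 genes tested. Genes near Bnip3 share its fall with 4OHT by construction, so nothing is read from that count. Of the other 9 HIF targets the nearest was Higd1a (2.02, rank 49), followed by P4ha1 (2.36, rank 213), and the farthest was Kdm3a (5.94, rank 12894), whose levels were higher at day 6.

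**Figure D5:**
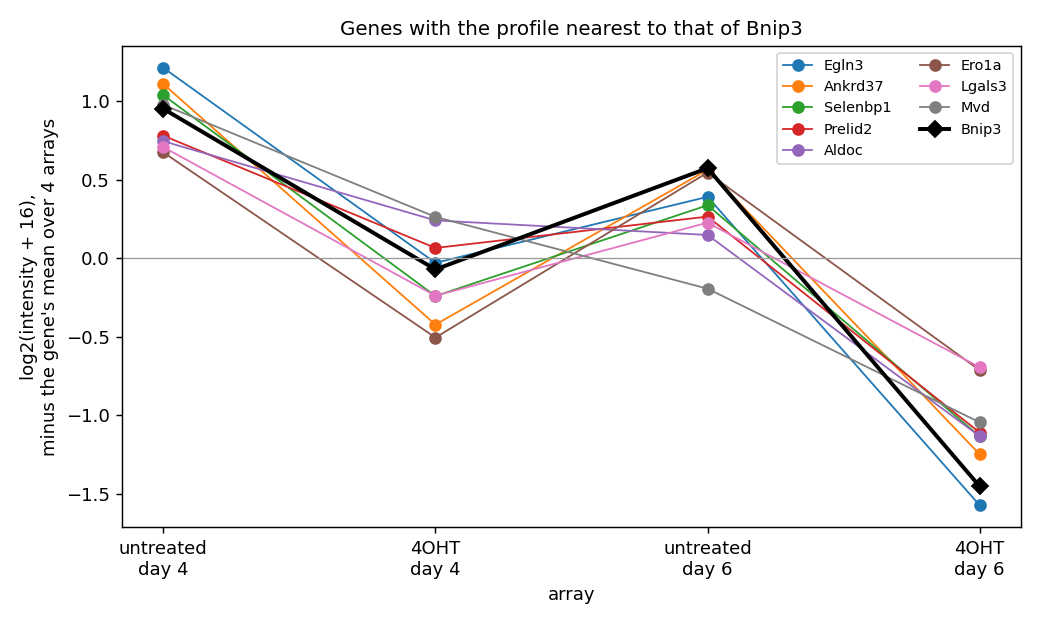
Profiles of Bnip3 (black diamonds) and the 8 genes nearest to it over the 4 arrays, as log2(intensity + 16) minus each gene's mean. Predicted and clone-named genes are left out, and lines join the arrays only to guide the eye. All 9 profiles have their highest point on the untreated array of day 4 and their lowest on the 4OHT array of day 6.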

How the data were processed

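Expression was measured on 4 arrays of mouse intestinal organoids. Per the labels' protocols, 100 ng of total RNA was labelled by 3' in vitro transcription. The authors deposited 1 intensity per probe set and array, on a linear scale. Their background correction and normalization are not given in the sources used here. Gene symbols came from the platform's annotation, and 34945 of 45101 probe sets named 1 gene and were no controls.

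Values were used as deposited, moved to log2(intensity + 16). The level filter asked for an intensity of 20.9, the median of all values, on at least 1 array. Each contrast set 1 array against 1 and was counted at 2-fold with no p-value. The only test was limma 3.58.1 (R 4.3.3; lmFit, eBayes) with additive terms for day and 4OHT and p-values adjusted by Benjamini-Hochberg over 13198 genes, each by its probe set of highest mean; it had 1 residual and 18.8 prior degrees of freedom. "Rose" and "fell" mean an adjusted p under 0.05. The same fit over 23044 probe sets gave the standard errors of the 10 genes. The gene fit was tested on simulated data for the 4OHT effect over both days (13198 genes). It found 79 of 100 genes given a log2 change of 1, 100 of 100 given 2, and 18 of 12998 given none. That simulation held no differences between whole arrays and no 4OHT effect that changed between the days. Its noise was drawn from the spread that the fit itself had estimated, so it does not show how the fit does on the real arrays.

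The 10 genes, the lists and the rule for named genes (all genes of a list past the test and up to 4 others ranked by the smaller of their same-signed differences at day 4 and day 6) were chosen with earlier results of these data known. The p-values rest on how far the 4OHT difference changed between the days, mostly as pooled over all genes. With 1 residual against 18.8 prior degrees of freedom, a gene's own change between the days adds little to its SE. No label says that the arrays come from separate cultures, so the p-values do not measure the spread between cultures. Tables and plots were made with Python 3.11.15, pandas 2.3.3, numpy 2.4.6 and matplotlib 3.10.9.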

Additional observations from a re-analysis of the deposited data

Results flagged for a closer look

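The results here are of probe sets past the level filter whose difference had opposite signs in the 2 days or in the 2 arms, on the log2(intensity + 16) scale. Each is 1 array against 1, so that the difference between the days or arms was not tested, and a value near 0 takes either sign easily. The brighter Vegfa probe set, 1451959_a_at, had 4OHT differences of -1.02 (day 4) and 0.46 (day 6). The Pdk1 probe set 1435836_at differed by 0.0039 and -1.10, the Adm probe set 1447839_x_at by 0.0029 and -0.47, and the Egln1 probe set 1451110_at by 0.16 and -0.33.

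Between day 4 and day 6, the same Pdk1 probe set was higher by 0.96 in untreated organoids and differed by -0.15 in the 4OHT arm. The Egln1 probe set differed by 0.34 and -0.15, the Higd1a probe set 1416480_a_at by 0.29 and -0.21, and the P4ha1 probe set 1452094_at by 0.66 and -0.080.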

How the results depend on the processing

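Each group is 1 array, and the day term of the fit pairs the 4OHT array of a day with the untreated array of that day. Of 304 differences of single probe sets recomputed with pseudocounts of 1 and 64, median centring and quantile normalization, 270 kept their direction and their side of 2-fold, 11 lost it, 11 gained it, 12 that were under 2-fold changed sign, and none past 2-fold reversed. The number of probe sets of the 10 genes that were 2-fold lower at day 4 (3) was 6 at 1.5-fold, 0 at 3-fold, 0 with a pseudocount of 64, 1 without the _x_at, _s_at and _a_at probe sets and 1 with probe sets averaged within genes. At day 6 (3) it was 9 at 1.5-fold, 1 at 3-fold, 5 and 1 with pseudocounts of 1 and 64, and 1 after quantile normalization. On both days (1) it was 4 at 1.5-fold, and 0 at 3-fold and with a pseudocount of 64. Higher at day 6 in untreated organoids (2) were 7 at 1.5-fold, 1 at 3-fold, 5 with a pseudocount of 1, 5 after median centring and 1 after quantile normalization; lower (1) were 2 after quantile normalization and 0 without the _x_at, _s_at and _a_at probe sets. In the 4OHT arm, higher (3) were 5 at 1.5-fold, 1 at 3-fold and 1 after quantile normalization, and lower (2) were 1 at 3-fold and 1 without the _x_at, _s_at and _a_at probe sets.

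The shares of all probe sets past the fold, in the order 4OHT lower at day 4, at day 6 and on both days, 4OHT higher at day 4 and at day 6, day 6 higher and lower in untreated organoids, and day 6 higher and lower in the 4OHT arm, were 0.907%, 2.5%, 0.551%, 0.903%, 0.668%, 23.7%, 4.43%, 16.2% and 2.47% at 2-fold. They were 4.97%, 8.64%, 1.92%, 7.22%, 3.76%, 37.3%, 16.2%, 29% and 13% at 1.5-fold and 0.122%, 0.603%, 0.0911%, 0.0825%, 0.126%, 9.47%, 0.963%, 5.51% and 0.286% at 3-fold. With a pseudocount of 1 they were 2.92%, 3.85%, 0.933%, 3.49%, 1.25%, 30.1%, 13%, 22% and 8.93%, and with 64 0.273%, 1.29%, 0.191%, 0.187%, 0.286%, 13.3%, 1.63%, 7.97% and 0.768%. Without the level filter they were 0.598%, 1.65%, 0.363%, 0.595%, 0.441%, 15.6%, 2.92%, 10.7% and 1.63%, and after quantile normalization 1.73%, 1.61%, 0.59%, 1.43%, 0.777%, 13.3%, 10.3%, 10.4% and 6.91%. Median centring raised the median of all differences between the days from 0.21 to 0.32 in untreated organoids and from 0.07 to 0.17 in the 4OHT arm.

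Of the pathway genes 8 fell and 3 rose. With a pseudocount of 1, 1 fell and 0 rose; 1 rose with probe sets averaged within genes, and 5 rose at an adjusted p under 0.1. With a pseudocount of 64, without the level filter, without the day term and with any 1 array left out (no day term), 0 fell and 0 rose. Over all genes 318 fell and 140 rose. Those counts were 199 and 68 with the filter on the mean, 134 and 39 with probe sets averaged within genes, and 42 and 8 with a pseudocount of 1. They were 0 and 0 with a pseudocount of 64, without the filter and without the day term, and leaving out 1 array (no day term) left 0 to 53 that fell and 0 to 8 that rose. After quantile normalization 79 rose, and at an adjusted p under 0.1 235 rose. With 3 arrays the day term leaves no residual degrees of freedom, so that each fit without an array changed both choices. The causes were not tested. No background level was used here, so how far dim probe sets lie above it is unknown.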
